A study of Saccharomyces cerevisiae with 12 samples.

Results

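Transcripts of the mitochondrial carrier family and its peroxisomal relative ANT1 were followed as 30 genes of budding yeast, Saccharomyces cerevisiae, out of 5656 genes named on the array. The genes were chosen by name, as transporters of adenine nucleotides, phosphate, organic acids, amino acids, cofactors and metals. Where a gene has several probe sets the one with the highest mean signal over 12 arrays stands for it, but each of the 30 had 1 probe set, which named no other gene. The 4 groups, with 3 biological replicates each, were ρ0 cells without glucose, ρ0 cells in glucose, ρ+ cells without glucose and ρ+ cells in glucose. ρ+ cells carry mitochondrial DNA (mtDNA) and ρ0 cells lack it. All cells grew at 22 °C to early log phase in CM medium with 2% glucose, where part of every master culture was harvested, and the remainder was washed and shaken for 4 h in CM medium with no glucose. No group was washed and shaken with glucose, so glucose withdrawal, as the shift is called here, cannot be told apart from washing and a further 4 h of shaking. The labels name neither the strain nor the way mtDNA was lost, and do not say how many separate ρ0 isolates were used.

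Carriers of this family sit in the inner mitochondrial membrane and exchange small molecules between the cytosol and the matrix. In respiring cells the ADP/ATP carriers send out ATP made by the ATP synthase. In cells without mtDNA, which lack a working respiratory chain and ATP synthase, ATP enters through the same carriers, and its exchange for ADP helps to keep up the membrane potential that protein import needs. Other members move the organic acids, amino acid precursors, cofactors and iron that biosynthetic pathways divided between mitochondria and cytosol require, in cells with and without respiration. Glucose is known to repress many yeast genes for respiration, fatty acid oxidation and the glyoxylate cycle.

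The measured value was the deposited signal intensity of a probe set on a 1-colour Affymetrix array, in arbitrary units on a linear scale. Signals were compared as log2(signal + 1.498), so fold changes of dim genes are understated, and a level of 5.822, the 25th percentile of all signals, was taken as the detection level. Adjusted p-values come from one limma fit to all 12 arrays and 5361 tested genes, with 0.05 as the threshold. All 30 carriers were tested, and 28 lay above the detection level on every array, the exceptions being SFC1 and CRC1. The levels of different genes come from different probe sets and are not compared with each other. The strain labels were checked with OLI1, an mtDNA gene for a subunit of the ATP synthase, whose signals were 0.196 to 0.435 on the 6 ρ0 arrays and 100.3 to 158.7 on the 6 ρ+ arrays. This check rests on 1 of 14 mtDNA probe sets, since 12 were above the detection level on no array and 1 for COX1 was above it on 0 ρ0 arrays and 5 ρ+ arrays. Replicates of a group correlated at 0.956 to 0.990 across genes. On ρ0 glucose replicate 2 and ρ0 no-glucose replicate 1, the hybridization control CreX gave 285 and 487, against 524.5 to 869 on the other 10 arrays. All comparisons were also fitted without both arrays, and the carrier calls lost there are named below. The ribosomal RNA control probe sets averaged 8.35 ± 0.52 (log2 signal, SD, n = 3) in ρ0 cells without glucose, 7.53 ± 0.38 in ρ0 cells in glucose, 8.61 ± 0.11 in ρ+ cells without glucose and 7.29 ± 0.28 in ρ+ cells in glucose. The 5′ to 3′ signal ratio of SPT15, which falls when transcripts or their copies are incomplete, was 0.140 ± 0.0419, 0.249 ± 0.131, 0.188 ± 0.00577 and 0.319 ± 0.0699 in the same groups. The same ratio of ACT1 was 0.648 ± 0.161, 0.712 ± 0.1025, 0.633 ± 0.0333 and 0.7045 ± 0.00604. On ρ0 glucose replicate 2 and ρ0 no-glucose replicate 1 the ACT1 ratio was highest, at 0.830 and 0.825, where SPT15 gave 0.130 and 0.106. The group means of these measures moved with glucose withdrawal in both strains, but in ρ0 cells arrays with and without glucose overlapped. Their part in the results was not tested.

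Of the 30 carriers, 20 passed the threshold in at least 1 of 5 comparisons. The share of all tested genes that did so was not counted, so the number does not set the carriers apart. After glucose withdrawal in ρ0 cells, 2 carriers rose (PET9 and CRC1) and 7 fell (DIC1, OAC1, YMC2, LEU5, RIM2, FLX1 and MRS4), where 4.59% of all tested genes rose and 12.4% fell. In ρ+ cells the same shift was followed by a rise of 5 carriers (AAC1, SFC1, CRC1, YIA6 and MRS4) and a fall of 10 (SAL1, DIC1, OAC1, ODC2, YHM2, AGC1, YMC1, YMC2, RIM2 and FLX1), against 10.5% and 22.3% of all genes. In either direction 30% of the carriers and 17% of all genes passed in ρ0 cells, and 50% of the carriers and 32.7% of all genes passed in ρ+ cells. The median carrier shifted by -0.25 on the log2 scale in ρ0 cells, where the median gene shifted by -0.11, and by -0.36 in ρ+ cells, where the median gene shifted by -0.19. DIC1, OAC1, YMC2, RIM2 and FLX1 were the 5 carriers that fell in both strains, and the share of all genes that did so was not counted.

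Loss of mtDNA was compared in both media. Without glucose, 8 carriers were higher in ρ0 than in ρ+ cells (PET9, SAL1, ANT1, MIR1, ODC2, YMC1, GGC1 and YHM2) and 4 were lower (SFC1, CRC1, YIA6 and MRS4), against 20.6% and 9.4% of all genes, or 30% in either direction. In this comparison the median carrier stood 0.25 higher on the log2 scale and the median gene 0.21 higher, and the count depends on the scale of the arrays. With every array centred on its median, 2 carriers were higher and 5 lower, where 442 and 740 of the 5361 genes were. With quantile normalization 4 carriers were higher and 5 lower, with 510 and 599 over all genes, against 1102 and 504 in the main fit. Scaling to the poly-A control transcripts, the last of the 3 other scalings tried, gave 4 higher and 3 lower. Over all genes this scaling gave 903 and 288. For withdrawal, median centring gave 3 higher and 2 lower in ρ0 cells, with 444 and 382 over all genes. In ρ+ cells it gave 6 higher and 6 lower, with 807 and 548 over all genes, and the median gene then lay at 0.02. In glucose, 1 carrier passed, YHM2, which was lower in ρ0 cells, where 5% of all genes were higher and 1.45% lower, or 6.45% in either direction. The glucose responses of ρ0 and ρ+ cells differed for 4 carriers, with a higher ρ0 response for YHM2 and a lower one for CRC1, YIA6 and MRS4, where 1.57% and 5.35% of all genes differed in these directions, or 6.92% in all. Of the 41 calls over the 5 comparisons, 15 held under every alternative.

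**Figure D1:**
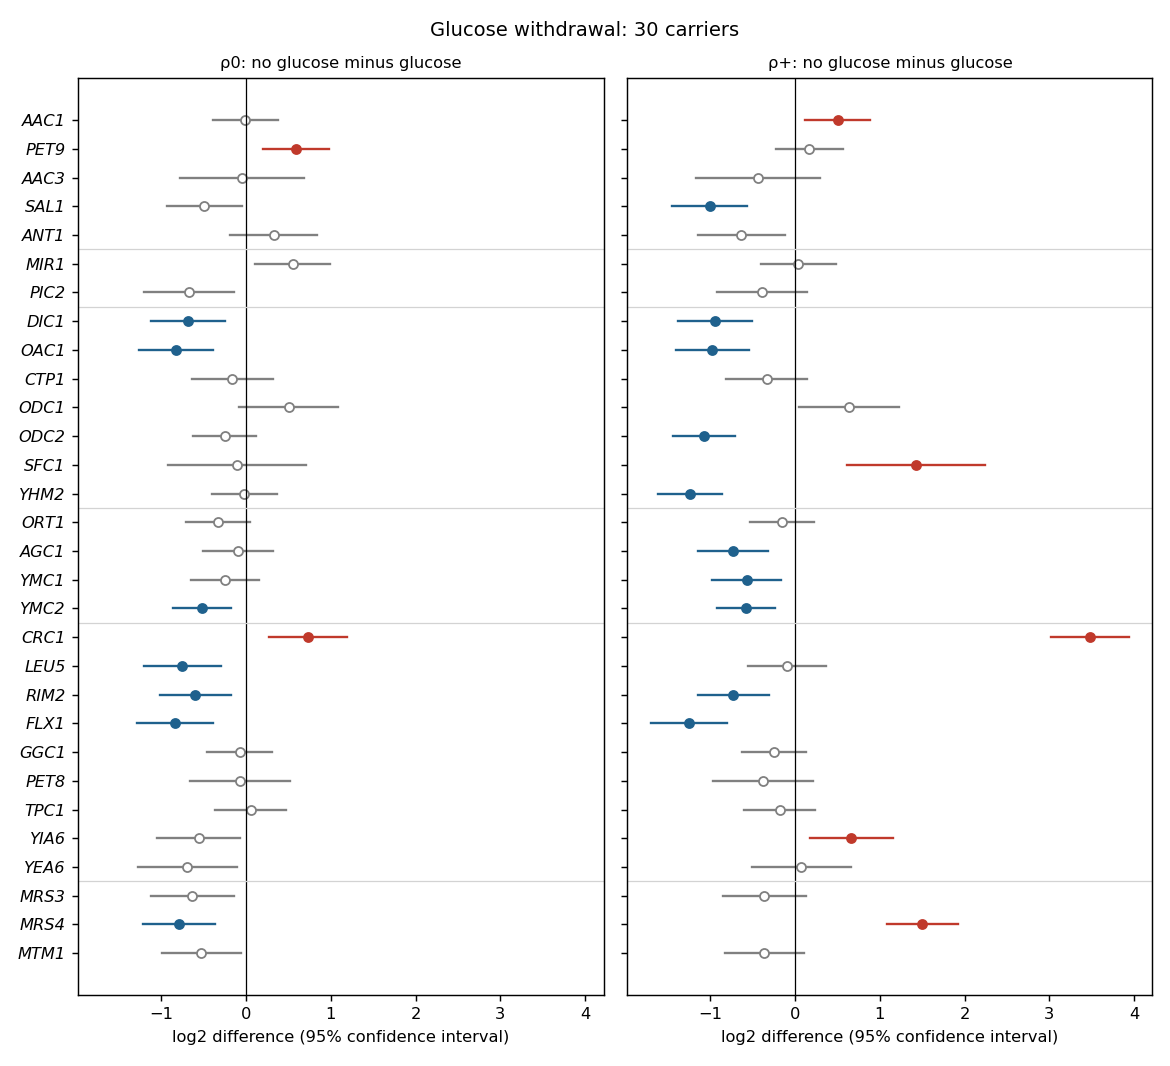
Log2 difference, no glucose minus glucose, for the 30 carriers in ρ0 cells (left) and ρ+ cells (right), with 95% confidence intervals from the limma fit and grey lines between the groups of roles. Filled points passed the threshold, red for higher and blue for lower. CRC1 reaches 0.73 in ρ0 cells and 3.48 in ρ+ cells, and MRS4 lies on opposite sides of 0. The SFC1 points are set against signals below the detection level.

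Among the 5 adenine nucleotide carriers, PET9 rose after glucose withdrawal in ρ0 cells, and in ρ+ cells SAL1 fell and AAC1 rose by a small amount. Without glucose, PET9, SAL1 and ANT1 were higher in ρ0 than in ρ+ cells, and AAC3 made no call. SAL1 signals were 24.8, 28.9 and 27.3 in ρ0 cells without glucose, 27.5, 48.2 and 42.9 in ρ0 cells in glucose, 15.96, 16.7 and 17.6 in ρ+ cells without glucose, and 28.4, 41.96 and 36.4 in ρ+ cells in glucose. SAL1 encodes a calcium-dependent exchanger of ATP-Mg and phosphate. All 3 ρ+ arrays without glucose lay below the other 9 arrays. The value after withdrawal was -0.49 in ρ0 cells (adjusted p = 0.114), and the gene fell in ρ+ cells (2.01-fold, log2 difference -1.01 ± 0.21 SE, adjusted p = 0.00212). Without glucose it was higher in ρ0 than in ρ+ cells (1.56-fold, log2 difference 0.64 ± 0.21 SE, adjusted p = 0.0297). The difference between the responses did not pass (0.51, 95% interval -0.11 to 1.14, adjusted p = 0.318). The SAL1 call between the strains without glucose was lost under each of the 3 other scalings (adjusted p 0.0611 to 0.168). The call was also lost without the ρ0 no-glucose array of replicate 2 or 3 or any 1 ρ+ no-glucose array (adjusted p 0.0572 to 0.0821).

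PET9, also called AAC2, encodes the major ADP/ATP carrier of the inner membrane. PET9 signals were 609, 696 and 509 in ρ0 cells without glucose, 416, 475 and 319 in ρ0 cells in glucose, 354, 459.7 and 395 in ρ+ cells without glucose, and 401, 353 and 316 in ρ+ cells in glucose. The ρ0 arrays without glucose all lay above the other 9. PET9 rose after withdrawal in ρ0 cells (1.505-fold, log2 difference 0.59 ± 0.18 SE, adjusted p = 0.0394) and stood higher in ρ0 than in ρ+ cells without glucose (1.496-fold, log2 difference 0.58 ± 0.18 SE, adjusted p = 0.028). In ρ+ cells withdrawal gave 0.17 (adjusted p = 0.5), and the responses of both strains did not differ past the threshold (0.42, 95% interval -0.14 to 0.97). AAC1 signals were 105, 91.7 and 103 in ρ0 cells without glucose, 103, 114 and 85.8 in ρ0 cells in glucose, 103, 104 and 115 in ρ+ cells without glucose, and 94.5, 73.7 and 61 in ρ+ cells in glucose. AAC1 encodes a minor ADP/ATP carrier of aerobic cells. Its lowest signals were on ρ+ glucose arrays, and replicate 1 of that group lay within the range of the ρ0 arrays. Withdrawal gave -0.01 in ρ0 cells, and the rise in ρ+ cells was small (1.42-fold, log2 difference 0.50 ± 0.18 SE, adjusted p = 0.0453). For PET9, the call for withdrawal in ρ0 cells ended with quantile normalization, with scaling to the poly-A controls or with a fit to the compared groups alone (adjusted p 0.0676 to 0.145). The same call ended without the ρ0 no-glucose array of replicate 1 or 2, the ρ0 glucose array of replicate 1 or 3 or the ρ+ glucose array of replicate 2 or 3 (adjusted p 0.0504 to 0.177). PET9 did not pass between the strains without glucose with arrays centred on their medians (adjusted p = 0.198). Nor did the call hold without the ρ0 no-glucose array of replicate 1 or 2 or the ρ+ no-glucose array of replicate 1 or 3 (adjusted p 0.0683 to 0.101). The AAC1 call for withdrawal in ρ+ cells was lost with scaling to the poly-A controls (adjusted p = 0.0776) or with the replicate number as a block (adjusted p = 0.0508). This call was likewise lost without the ρ0 no-glucose array of replicate 1, the ρ0 glucose array of replicate 1, any 1 ρ+ no-glucose array or the ρ+ glucose array of replicate 2 or 3 (adjusted p 0.0515 to 0.203).

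AAC3 signals were 30.1, 38.7 and 28.9 in ρ0 cells without glucose, 42.5, 32.2 and 27.04 in ρ0 cells in glucose, 47.8, 52.6 and 21.6 in ρ+ cells without glucose, and 74.2, 66.3 and 28.4 in ρ+ cells in glucose. AAC3 encodes the ADP/ATP carrier isoform of low-oxygen growth. Its replicates spread widely in both ρ+ groups and overlapped in every comparison, and no difference passed the threshold. The 95% interval of its log2 difference in glucose, ρ0 against ρ+, was -1.35 to 0.11. ANT1 signals were 109.6, 136 and 122 in ρ0 cells without glucose, 119.5, 62.5 and 123 in ρ0 cells in glucose, 84.3, 72.6 and 51.7 in ρ+ cells without glucose, and 105, 108 and 106 in ρ+ cells in glucose. ANT1, the peroxisomal carrier, brings ATP in for the activation of fatty acids. The ρ+ arrays without glucose were below all ρ0 arrays without glucose, where the gene was higher in ρ0 cells (1.78-fold, log2 difference 0.83 ± 0.24 SE, adjusted p = 0.0183), and the values for withdrawal were 0.33 in ρ0 cells (adjusted p = 0.377) and -0.63 in ρ+ cells (adjusted p = 0.0548). For ANT1, the call between the strains without glucose ended with quantile normalization or with arrays centred on their medians (adjusted p 0.0526 to 0.0617). The call was also lost without the ρ0 no-glucose array of replicate 2 or the ρ+ no-glucose array of replicate 3 (adjusted p 0.0622 to 0.088).

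**Figure D2:**
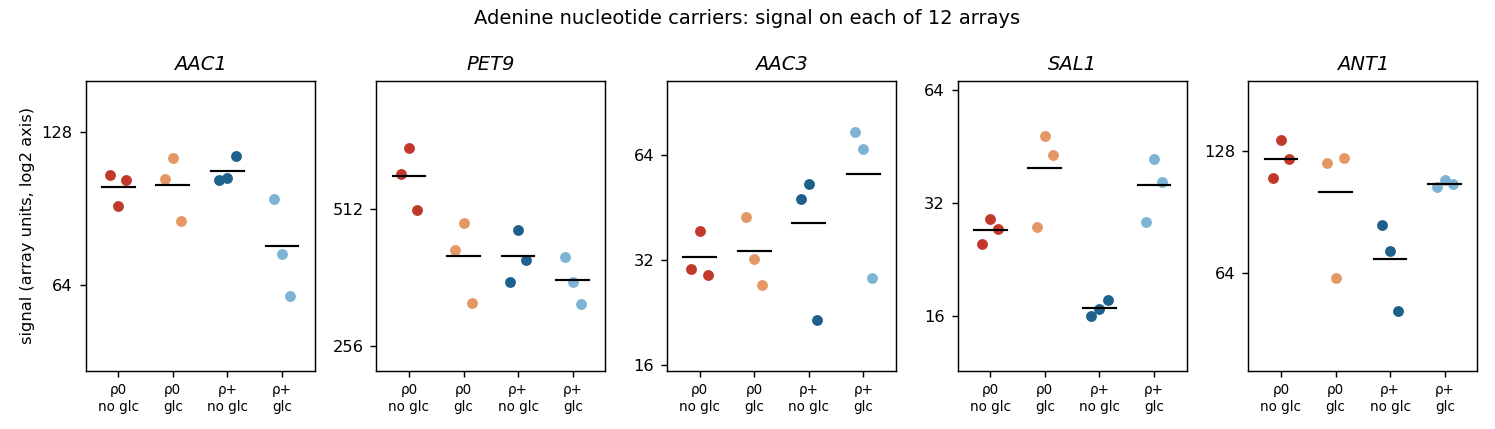
Signal of the 5 adenine nucleotide carriers on each of the 12 arrays (points, log2 axis, array units) with the group mean (bar), in ρ0 cells without glucose and in glucose and ρ+ cells without glucose and in glucose. SAL1 is lowest on the 3 ρ+ arrays without glucose, at 16.0 to 17.6, and PET9 is highest on the 3 ρ0 arrays without glucose, at 509 to 696.

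Neither phosphate carrier passed the threshold after glucose withdrawal in either strain. MIR1 encodes the main phosphate carrier, which supplies phosphate for ATP synthesis. MIR1 signals were 777, 692 and 800.3 in ρ0 cells without glucose, 503, 443 and 614 in ρ0 cells in glucose, 575, 344 and 652 in ρ+ cells without glucose, and 454, 509.9 and 513 in ρ+ cells in glucose. The ρ0 arrays without glucose were the highest of all 12, and one ρ+ array without glucose, replicate 2, lay below all others. MIR1 was higher in ρ0 than in ρ+ cells without glucose (1.49-fold, log2 difference 0.58 ± 0.21 SE, adjusted p = 0.0461). PIC2, whose product carries phosphate and copper, averaged 333 ± 116 in ρ0 cells without glucose, 535 ± 208 in ρ0 cells in glucose, 269 ± 21.2 in ρ+ cells without glucose and 353 ± 22.03 in ρ+ cells in glucose (SD, n = 3 each), with no call. MIR1 did not pass between the strains without glucose under each of the 3 other scalings, with a fit to the compared groups alone or without both arrays that stand apart (adjusted p 0.07 to 0.184). The same call ended without any 1 ρ0 no-glucose array, the ρ0 glucose array of replicate 1, the ρ+ no-glucose array of replicate 1 or 2 or any 1 ρ+ glucose array (adjusted p 0.0535 to 0.215).

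Of the 7 organic acid carriers, 2 fell after glucose withdrawal in ρ0 cells, and 4 fell and 1 rose in ρ+ cells. DIC1 signals were 346, 451 and 322 in ρ0 cells without glucose, 457, 568 and 812 in ρ0 cells in glucose, 250.2, 236 and 274 in ρ+ cells without glucose, and 412, 530.1 and 522 in ρ+ cells in glucose. DIC1 encodes the dicarboxylate carrier, which exchanges malate or succinate for phosphate. Arrays with and without glucose did not overlap within either strain, and DIC1 fell in ρ0 cells (1.61-fold, log2 difference -0.69 ± 0.21 SE, adjusted p = 0.0317) and in ρ+ cells (1.91-fold, log2 difference -0.94 ± 0.21 SE, adjusted p = 0.00317). OAC1 signals were 271, 415 and 415 in ρ0 cells without glucose, 635, 489 and 837 in ρ0 cells in glucose, 357, 363 and 349 in ρ+ cells without glucose, and 639.5, 748 and 723 in ρ+ cells in glucose. OAC1, which carries oxaloacetate, sulfate and the leucine precursor isopropylmalate, likewise fell in ρ0 cells (1.77-fold, log2 difference -0.82 ± 0.20 SE, adjusted p = 0.0122) and in ρ+ cells (1.97-fold, log2 difference -0.98 ± 0.20 SE, adjusted p = 0.00226), again with no overlap. Neither response differed between the strains past the threshold (differences of 0.25, 95% interval -0.37 to 0.87, for DIC1 and 0.15, -0.46 to 0.76, for OAC1). The DIC1 call for withdrawal in ρ0 cells was lost with arrays centred on their medians, with scaling to the poly-A controls, with a fit to the compared groups alone or without both arrays that stand apart (adjusted p 0.0845 to 0.135). Nor did the call hold without the ρ0 no-glucose array of replicate 1 or 3 or the ρ0 glucose array of replicate 3 (adjusted p 0.0836 to 0.159). For OAC1, the call for withdrawal in ρ0 cells ended with scaling to the poly-A controls or with a fit to the compared groups alone (adjusted p 0.0675 to 0.0817). This call was likewise lost without the ρ0 no-glucose array of replicate 1 or the ρ0 glucose array of replicate 3 (adjusted p 0.0637 to 0.0683).

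ODC2 and YHM2 fell after withdrawal in ρ+ cells and made no call in ρ0 cells. ODC2 signals were 174, 248 and 217 in ρ0 cells without glucose, 247, 221 and 290.1 in ρ0 cells in glucose, 93.7, 78.1 and 86.5 in ρ+ cells without glucose, and 189, 186 and 172 in ρ+ cells in glucose. ODC2 encodes a carrier of oxoadipate and oxoglutarate, acids of lysine synthesis and the citric acid cycle. Its 3 ρ+ arrays without glucose lay far below the other 9. ODC2 had a value of -0.25 after withdrawal in ρ0 cells (adjusted p = 0.343), and fell in ρ+ cells (2.10-fold, log2 difference -1.07 ± 0.17 SE, adjusted p = 0.000358). Without glucose it was higher in ρ0 than in ρ+ cells (2.43-fold, log2 difference 1.28 ± 0.17 SE, adjusted p = 9.04e-05), and both calls held under every alternative. The difference between the responses did not pass, at 0.82 (95% interval 0.30 to 1.34, adjusted p = 0.0546). Its paralog ODC1 made no call, with 71.02 ± 10.6 in ρ0 cells without glucose, 51.5 ± 17.6 in ρ0 cells in glucose, 83.1 ± 30.9 in ρ+ cells without glucose and 50.99 ± 7.43 in ρ+ cells in glucose.

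YHM2 encodes a carrier that exchanges citrate for oxoglutarate. YHM2 signals were 165, 151 and 121 in ρ0 cells without glucose, 136, 142 and 162 in ρ0 cells in glucose, 119.8, 105 and 82.4 in ρ+ cells without glucose, and 251, 239.6 and 234 in ρ+ cells in glucose. The ρ+ arrays in glucose were the highest of the 12, and the ρ+ arrays without glucose were the lowest. After withdrawal the value in ρ0 cells was -0.02 (95% interval -0.40 to 0.36), and YHM2 fell in ρ+ cells (2.36-fold, log2 difference -1.24 ± 0.18 SE, adjusted p = 0.000133). It was higher in ρ0 than in ρ+ cells without glucose (1.42-fold, log2 difference 0.50 ± 0.18 SE, adjusted p = 0.0437) but lower in glucose (1.65-fold, log2 difference -0.72 ± 0.18 SE, adjusted p = 0.0255). The difference of the responses was 1.22 ± 0.25 (SE, adjusted p = 0.00705). YHM2 did not pass between the strains without glucose under each of the 3 other scalings, with a fit to the compared groups alone or without both arrays that stand apart (adjusted p 0.0684 to 0.259). The call was also lost without the ρ0 no-glucose array of replicate 1 or 2, the ρ0 glucose array of replicate 1, the ρ+ no-glucose array of replicate 2 or 3 or any 1 ρ+ glucose array (adjusted p 0.0514 to 0.178). The YHM2 call between the strains in glucose was lost with scaling to the poly-A controls (adjusted p = 0.165). The same call ended without the ρ0 glucose array of replicate 1 or 2 or any 1 ρ+ glucose array (adjusted p 0.0546 to 0.0859). For YHM2, the call for the difference of the responses ended with scaling to the poly-A controls (adjusted p = 0.0667).

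SFC1 signals were 2.697, 0.958 and 0.382 in ρ0 cells without glucose, 1.06, 1.39 and 1.78 in ρ0 cells in glucose, 9.07, 5.90 and 13.2 in ρ+ cells without glucose, and 4.13, 1.25 and 2.33 in ρ+ cells in glucose. SFC1 encodes the succinate and fumarate carrier that growth on ethanol or acetate requires, and it was above the detection level on the 3 ρ+ arrays without glucose alone. SFC1 rose in ρ+ cells (at least 1.53-fold, adjusted p = 0.0108) and was lower in ρ0 than in ρ+ cells without glucose (at least 1.53-fold, adjusted p = 0.00172). These folds are bounds against the detection level, which the other 9 arrays did not exceed. The p-values come from the log2 signals, those below that level included, and not from the bounds. SFC1 was tested because its mean in ρ+ cells without glucose, 9.39, passed the detection level, which no other group mean did. In that group the signal of replicate 2, 5.90, lay below the highest negative control signal, 8.79. Both calls held with no filter and with signals floored at the detection level. For the call between the strains, the highest adjusted p over the alternatives was 0.0499. The difference of the responses did not pass (adjusted p = 0.0991). CTP1, the citrate carrier, made no call, with group means of 67.5 ± 9.05 in ρ+ cells without glucose to 86.0 ± 16.8 in ρ+ cells in glucose (SD, n = 3). SFC1 did not pass for withdrawal in ρ+ cells without the ρ+ no-glucose array of replicate 3 or the ρ+ glucose array of replicate 2 (adjusted p 0.057 to 0.0579).

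Of the 4 carriers linked to amino acids, YMC2 fell in ρ0 cells after withdrawal, and AGC1, YMC1 and YMC2 fell in ρ+ cells. AGC1 encodes the aspartate and glutamate carrier. AGC1 signals were 23.9, 19.3 and 22.5 in ρ0 cells without glucose, 24.7, 23.8 and 21.6 in ρ0 cells in glucose, 12.1, 17.8 and 15.3 in ρ+ cells without glucose, and 20.7, 26.7 and 30.6 in ρ+ cells in glucose. Withdrawal gave -0.09 in ρ0 cells (adjusted p = 0.773), and the gene fell in ρ+ cells (1.66-fold, log2 difference -0.73 ± 0.19 SE, adjusted p = 0.0095), where arrays with and without glucose did not overlap. YMC1 signals were 171, 269.5 and 208 in ρ0 cells without glucose, 244, 277 and 236 in ρ0 cells in glucose, 129, 125 and 95.05 in ρ+ cells without glucose, and 170.2, 158 and 188 in ρ+ cells in glucose. YMC1 fell in ρ+ cells (1.48-fold, log2 difference -0.57 ± 0.19 SE, adjusted p = 0.0315) and was higher in ρ0 than in ρ+ cells without glucose (1.83-fold, log2 difference 0.87 ± 0.19 SE, adjusted p = 0.00344), where the groups did not overlap, and this call between the strains held under every alternative. YMC2 signals were 55.03, 61.8 and 59.1 in ρ0 cells without glucose, 73.5, 87.5 and 92.9 in ρ0 cells in glucose, 54.8, 55.7 and 45.7 in ρ+ cells without glucose, and 71.97, 84.6 and 79.04 in ρ+ cells in glucose. YMC2, its close homolog, fell in ρ0 cells (1.43-fold, log2 difference -0.51 ± 0.16 SE, adjusted p = 0.0397) and in ρ+ cells (1.496-fold, log2 difference -0.58 ± 0.16 SE, adjusted p = 0.0129), and made no call between the strains. ORT1, the ornithine carrier of arginine synthesis, made no call, and its log2 differences lay between -0.33 and 0.60 over the 5 comparisons. The AGC1 call for withdrawal in ρ+ cells was lost under each of the 3 other scalings (adjusted p 0.0595 to 0.115). Nor did the call hold without the ρ+ glucose array of replicate 3 (adjusted p = 0.0551). For YMC1, the call for withdrawal in ρ+ cells ended under each of the 3 other scalings (adjusted p 0.0506 to 0.225). This call was likewise lost without the ρ+ no-glucose array of replicate 3 or any 1 ρ+ glucose array (adjusted p 0.0554 to 0.129). YMC2 did not pass for withdrawal in ρ+ cells under each of the 3 other scalings (adjusted p 0.0811 to 0.175). The call was also lost without the ρ+ no-glucose array of replicate 3 or the ρ+ glucose array of replicate 2 (adjusted p 0.055 to 0.0597). The YMC2 call for withdrawal in ρ0 cells was lost under each of the 3 other scalings, with a fit to the compared groups alone or without both arrays that stand apart (adjusted p 0.124 to 0.208). The same call ended without any 1 ρ0 no-glucose array, the ρ0 glucose array of replicate 2 or 3, the ρ+ no-glucose array of replicate 1 or the ρ+ glucose array of replicate 2 or 3 (adjusted p 0.054 to 0.142).

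CRC1 had the largest change of the 30 carriers in ρ+ cells after withdrawal. Its product carries carnitine and acetylcarnitine, which bring acetyl units from peroxisomes and cytosol into mitochondria. CRC1 signals were 22.6, 22.7 and 20.2 in ρ0 cells without glucose, 11.98, 10.1 and 16.4 in ρ0 cells in glucose, 86.97, 92.8 and 123 in ρ+ cells without glucose, and 8.68, 5.50 and 9.08 in ρ+ cells in glucose. All 3 ρ+ arrays without glucose lay above the other 9, and 1 ρ+ array in glucose fell below the detection level. CRC1 rose in ρ0 cells (1.66-fold, log2 difference 0.73 ± 0.22 SE, adjusted p = 0.0302), rose by more in ρ+ cells (11.1-fold, log2 difference 3.48 ± 0.22 SE, adjusted p = 1.83e-08) and was lower in ρ0 than in ρ+ cells without glucose (4.34-fold, log2 difference -2.12 ± 0.22 SE, adjusted p = 5.54e-06). The difference of the responses was -2.75 ± 0.30 (SE, adjusted p = 5.47e-05), and it held under all 21 alternatives. In glucose the value was 0.63 (adjusted p = 0.0899). For CRC1, the call for withdrawal in ρ0 cells ended with scaling to the poly-A controls, with a fit to the compared groups alone or without both arrays that stand apart (adjusted p 0.0716 to 0.154). Nor did the call hold without the ρ0 no-glucose array of replicate 1 or 2 or the ρ0 glucose array of replicate 1 or 2 (adjusted p 0.0735 to 0.0857).

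**Figure D3:**
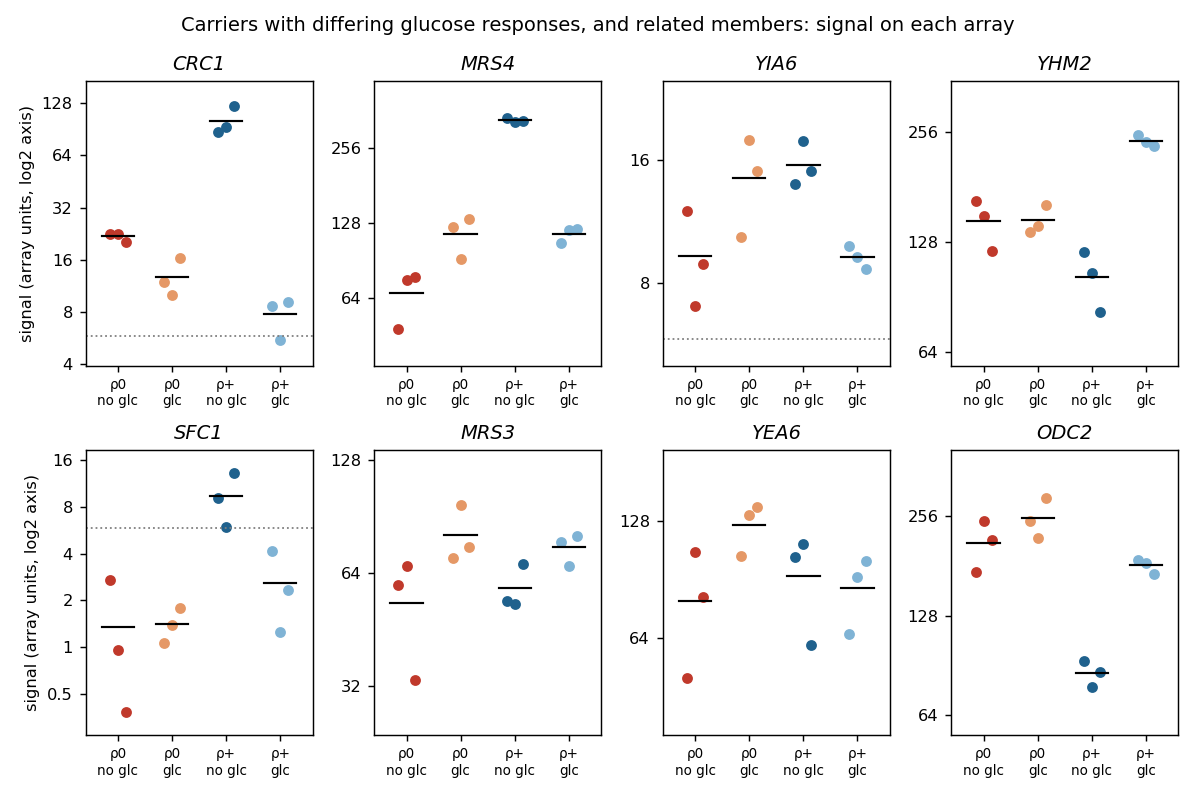
Signal on each array (points, log2 axis, array units; bar, group mean; dotted line, detection level where shown) for the carriers whose glucose response differed between ρ0 and ρ+ cells, CRC1, MRS4, YIA6 and YHM2, and for SFC1, MRS3, YEA6 and ODC2. CRC1 and MRS4 are highest on the ρ+ arrays without glucose, at 87.0 to 123 and 326 to 339.

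Among the 8 carriers of nucleotides and cofactors other than CRC1, FLX1 and RIM2 fell after withdrawal in both strains, LEU5 fell in ρ0 cells and YIA6 rose in ρ+ cells. FLX1 signals were 21.7, 17.4 and 12.04 in ρ0 cells without glucose, 29.5, 29.9 and 33.4 in ρ0 cells in glucose, 11.7, 16.7 and 16.7 in ρ+ cells without glucose, and 35.8, 42.9 and 33.9 in ρ+ cells in glucose. FLX1, linked to the transport of FAD, fell in ρ0 cells (1.79-fold, log2 difference -0.84 ± 0.21 SE, adjusted p = 0.0132) and in ρ+ cells (2.37-fold, log2 difference -1.25 ± 0.21 SE, adjusted p = 0.000495), with no overlap between arrays with and without glucose in either strain. RIM2 signals were 23.2, 31.6 and 29.7 in ρ0 cells without glucose, 32.5, 49.9 and 49.2 in ρ0 cells in glucose, 19.3, 24.3 and 21.1 in ρ+ cells without glucose, and 32.2, 37.2 and 40.6 in ρ+ cells in glucose. RIM2, the carrier of pyrimidine nucleotides that mtDNA replication needs, fell in ρ0 cells (1.51-fold, log2 difference -0.60 ± 0.20 SE, adjusted p = 0.0481) and in ρ+ cells (1.66-fold, log2 difference -0.73 ± 0.20 SE, adjusted p = 0.0113), again with no overlap. LEU5 signals were 27, 25.4 and 23.2 in ρ0 cells without glucose, 40.8, 40.2 and 49.5 in ρ0 cells in glucose, 30.6, 36.4 and 42.98 in ρ+ cells without glucose, and 49.6, 44.4 and 26.5 in ρ+ cells in glucose. LEU5, linked to coenzyme A in the matrix, fell in ρ0 cells (1.68-fold, log2 difference -0.75 ± 0.22 SE, adjusted p = 0.026), where arrays with and without glucose were apart, while the ρ+ groups overlapped (-0.09, adjusted p = 0.772). RIM2 did not pass for withdrawal in ρ+ cells under each of the 3 other scalings (adjusted p 0.0693 to 0.123). This call was likewise lost without the ρ+ glucose array of replicate 3 (adjusted p = 0.0527). The RIM2 call for withdrawal in ρ0 cells was lost under each of the 3 other scalings, with no filter, with signals floored at the detection level, with a fit to the compared groups alone or without both arrays that stand apart (adjusted p 0.0527 to 0.295). The call was also lost without any 1 ρ0 no-glucose array, the ρ0 glucose array of replicate 2 or 3, any 1 ρ+ no-glucose array or any 1 ρ+ glucose array (adjusted p 0.0527 to 0.177). For FLX1, the call for withdrawal in ρ0 cells ended with quantile normalization, with arrays centred on their medians or with a fit to the compared groups alone (adjusted p 0.0515 to 0.0529). The same call ended without the ρ0 glucose array of replicate 3 (adjusted p = 0.0538). LEU5 did not pass for withdrawal in ρ0 cells with quantile normalization or with arrays centred on their medians (adjusted p 0.0727 to 0.0776). Nor did the call hold without any 1 ρ0 no-glucose array or the ρ0 glucose array of replicate 3 (adjusted p 0.0537 to 0.102).

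YIA6 and YEA6 encode both mitochondrial NAD+ carriers. YIA6 signals were 12.03, 7 and 8.87 in ρ0 cells without glucose, 10.4, 17.9 and 15.1 in ρ0 cells in glucose, 13.9, 17.8 and 15.1 in ρ+ cells without glucose, and 9.86, 9.25 and 8.64 in ρ+ cells in glucose. YIA6 was dim, but above the detection level on every array. Its signals on ρ0 no-glucose replicate 2 (7) and ρ+ glucose replicate 3 (8.64) lay below the highest negative control signal, 8.79. The ρ0 value after withdrawal was -0.56 (adjusted p = 0.105), and the gene rose in ρ+ cells (1.58-fold, log2 difference 0.66 ± 0.23 SE, adjusted p = 0.0372). Without glucose it was lower in ρ0 than in ρ+ cells (1.60-fold, log2 difference -0.68 ± 0.23 SE, adjusted p = 0.0355), and neither of these calls had overlapping groups. The responses differed by -1.22 ± 0.32 (SE, adjusted p = 0.0326). YEA6 made no call, with values of -0.69 in ρ0 cells and 0.08 in ρ+ cells after withdrawal. GGC1 signals were 251, 348 and 253 in ρ0 cells without glucose, 263, 368 and 266 in ρ0 cells in glucose, 175, 193 and 188 in ρ+ cells without glucose, and 232, 213 and 218 in ρ+ cells in glucose. GGC1, the GTP/GDP carrier, which is also needed for iron balance, was higher in ρ0 than in ρ+ cells without glucose, with no overlap (1.51-fold, log2 difference 0.59 ± 0.18 SE, adjusted p = 0.0215). PET8, which carries S-adenosylmethionine, and TPC1, which carries thiamine pyrophosphate, made no call, and their group means spanned 27.4 ± 5.11 to 36.5 ± 15.6 and 18.1 ± 3.73 to 23.6 ± 2.14 (SD, n = 3). The YIA6 call for withdrawal in ρ+ cells was lost with scaling to the poly-A controls (adjusted p = 0.0648) or with the replicate number as a block (adjusted p = 0.0591). This call was likewise lost without any 1 ρ+ no-glucose array or any 1 ρ+ glucose array (adjusted p 0.0548 to 0.114). For YIA6, the call between the strains without glucose ended with scaling to the poly-A controls (adjusted p = 0.119). The call was also lost without the ρ0 no-glucose array of replicate 2 or 3 or any 1 ρ+ no-glucose array (adjusted p 0.0541 to 0.128). YIA6 did not pass for the difference of the responses with scaling to the poly-A controls (adjusted p = 0.057) or with the replicate number as a block (adjusted p = 0.0535). The same call ended without the ρ0 no-glucose array of replicate 2, the ρ0 glucose array of replicate 2 or 3, the ρ+ no-glucose array of replicate 2 or 3 or any 1 ρ+ glucose array (adjusted p 0.056 to 0.0786). The GGC1 call between the strains without glucose was lost with arrays centred on their medians or with scaling to the poly-A controls (adjusted p 0.0516 to 0.165). Nor did the call hold without the ρ0 no-glucose array of replicate 2 or the ρ+ no-glucose array of replicate 1 (adjusted p 0.068 to 0.0897).

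Of the 3 carriers tied to metals, MRS4 moved in opposite directions in ρ0 and ρ+ cells. MRS3 and MRS4 are related carriers that bring iron into mitochondria for heme and iron-sulfur cluster synthesis. MRS4 signals were 48.3, 75.9 and 77.8 in ρ0 cells without glucose, 124, 92.05 and 133 in ρ0 cells in glucose, 339, 326 and 328 in ρ+ cells without glucose, and 107, 119.7 and 122 in ρ+ cells in glucose. The 3 ρ+ arrays without glucose lay above all others and close together, and the 3 ρ0 arrays without glucose lay below all others. MRS4 fell in ρ0 cells (1.73-fold, log2 difference -0.79 ± 0.20 SE, adjusted p = 0.0134), rose in ρ+ cells (2.83-fold, log2 difference 1.50 ± 0.20 SE, adjusted p = 6e-05) and without glucose was lower in ρ0 than in ρ+ cells (4.93-fold, log2 difference -2.30 ± 0.20 SE, adjusted p = 1.14e-06). The difference of the responses was -2.29 ± 0.28 (SE, adjusted p = 0.000119), and it held under all 21 alternatives. In glucose the strains gave -0.01 (95% interval -0.43 to 0.41). MRS3 made no call, with 53.2 ± 17.7 in ρ0 cells without glucose, 80.6 ± 14.4 in ρ0 cells in glucose, 58.2 ± 8.31 in ρ+ cells without glucose and 74.8 ± 7.10 in ρ+ cells in glucose (SD, n = 3 each). MTM1, which the mitochondrial superoxide dismutase needs to take up manganese, made no call either, and its value in glucose was 0.72 (ρ0 against ρ+, 95% interval 0.25 to 1.18, adjusted p = 0.0603). For MRS4, the call for withdrawal in ρ0 cells ended with scaling to the poly-A controls or with a fit to the compared groups alone (adjusted p 0.0738 to 0.093). This call was likewise lost without the ρ0 no-glucose array of replicate 1 or the ρ0 glucose array of replicate 3 (adjusted p 0.0641 to 0.07).

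**Figure D4:**
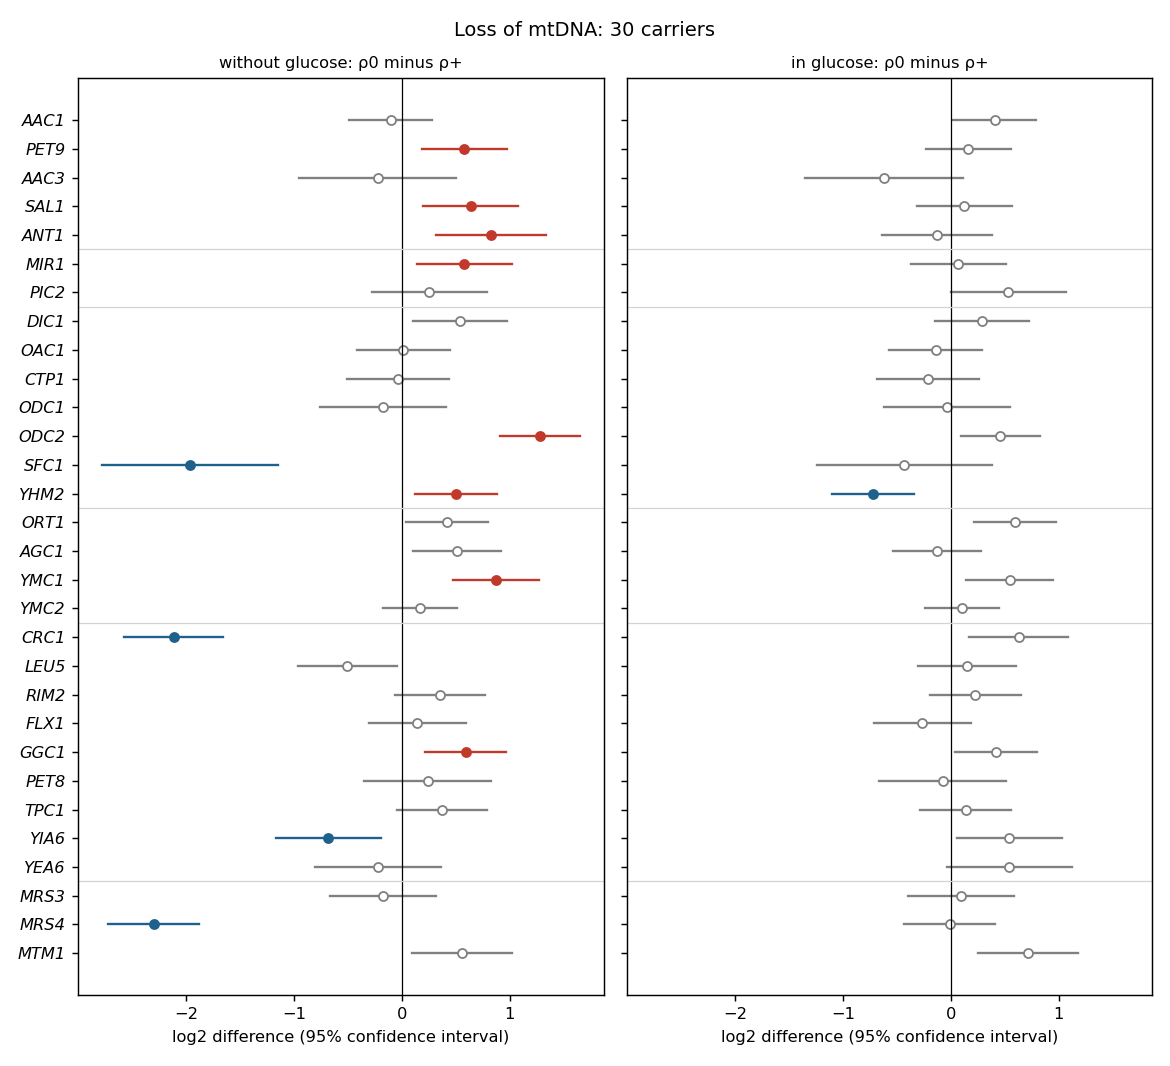
Log2 difference, ρ0 minus ρ+, for the 30 carriers without glucose (left) and in glucose (right), with 95% confidence intervals from the limma fit and grey lines between the groups of roles. Filled points passed the threshold, red for higher and blue for lower, which 12 carriers did without glucose and YHM2 alone did in glucose.

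In glucose, the mtDNA comparison had 9 carriers higher and 1 lower at an unadjusted limma p under 0.05, of which YHM2 remained after adjustment. The share of all genes at this unadjusted threshold was not counted, so the split is not read as a trait of the carriers. After adjustment 5% of all genes were higher and 1.45% lower, and the median carrier and the median gene both lay at 0.13. Without glucose, ρ0 against ρ+ and withdrawal in ρ+ cells share the ρ+ arrays without glucose. The opposite signs of SAL1, ODC2, YMC1, YHM2, SFC1, CRC1, YIA6 and MRS4 in these comparisons therefore rest in part on the same arrays. Withdrawal in ρ0 and withdrawal in ρ+ share no arrays, but the same fit gave the spread for both. CRC1 was the carrier that rose in both, and 5 carriers fell in both. How many of all genes rose or fell in both was not counted. Of the 9 carrier calls for withdrawal in ρ0 cells, all 9 were lost under at least 1 alternative.

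**Figure D5:**
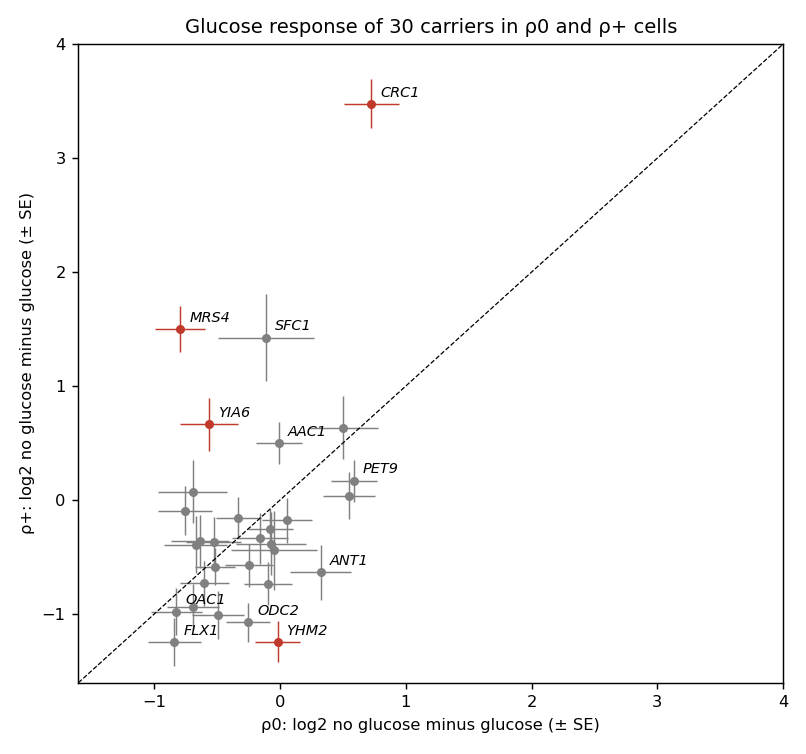
Log2 difference, no glucose minus glucose, of the 30 carriers in ρ0 cells (horizontal) and in ρ+ cells (vertical), with SE bars and a dashed line of equal response. Red marks the 4 carriers whose responses differed past the threshold, of which CRC1 (0.73, 3.48), MRS4 (-0.79, 1.50) and YIA6 (-0.56, 0.66) lie above the line and YHM2 (-0.02, -1.24) below it.

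Related carriers were then compared as log2 ratios within each array, for 7 pairs with a shared substrate and 14 exact permutation tests (two-sided, labels permuted within medium or within strain, 400 assignments, smallest possible p = 0.005), adjusted over the 14. The pairs were chosen with earlier results of these data known, and their p-values come from the same 12 arrays as the limma calls. A ratio shows that the probe sets changed unequally and does not say which of the genes is more abundant. ODC1 over ODC2 was higher after withdrawal, by 1.23 (exact p = 0.005, adjusted 0.035), at 0.75 in ρ0 cells and 1.71 in ρ+ cells. The same ratio was lower in ρ0 than in ρ+ cells, by -0.98 (exact p = 0.01, adjusted 0.0467), at -1.45 without glucose and -0.50 in glucose. YMC1 over YMC2 was higher in ρ0 than in ρ+ cells, by 0.57 (exact p = 0.005, adjusted 0.035), at 0.70 without glucose and 0.44 in glucose. AAC3 over PET9 gave -0.79 for ρ0 against ρ+ (adjusted exact p = 0.0875) and -0.62 for withdrawal (adjusted exact p = 0.0933), and MRS3 over MRS4 gave 1.12 for ρ0 against ρ+ (adjusted exact p = 0.0933), so these did not pass. The MRS3 over MRS4 value was 2.125 without glucose and 0.11 in glucose. Each test takes the mean over both media or both strains, so it cannot show a change that differs between them. The withdrawal tests took arrays with and without glucose as unpaired, though the master cultures were split. The labels do not tie replicate numbers to cultures, and no paired version was run. No call held without ρ+ glucose replicate 2 (adjusted exact p = 0.07 to 0.0933). The mtDNA call for ODC1 over ODC2 was also lost without ρ+ glucose replicate 3, ρ0 glucose replicate 2 or ρ0 glucose replicate 3 (adjusted exact p = 0.056 to 0.07). Without both arrays that stand apart 100 assignments are left for mtDNA loss and 120 for withdrawal, and these 3 calls at their smallest possible p would adjust to 0.07 and 0.0778. That setting is therefore no test of them.

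A list of further carriers, pyruvate carrier subunits and outer membrane porins was set beside the family, and 10 of its 11 genes were tested. This list was chosen with earlier results of these data known, so its counts are description and no test. After withdrawal none of the 10 rose and 2 fell in ρ0 cells, where 4.59% of all genes rose and 12.4% fell. In ρ+ cells 3 rose and 1 fell, where 10.5% of all genes rose and 22.3% fell. MPC3 signals were 302, 152 and 254 in ρ0 cells without glucose, 139, 173 and 177 in ρ0 cells in glucose, 929, 873 and 997 in ρ+ cells without glucose, and 120.1, 94.4 and 82.3 in ρ+ cells in glucose. MPC3 encodes a subunit of the pyruvate carrier of respiring cells, and its ρ+ arrays without glucose lay above all others. Its value in ρ0 cells was 0.48 (adjusted p = 0.153), it rose in ρ+ cells (9.40-fold, log2 difference 3.23 ± 0.23 SE, adjusted p = 6.09e-08), and the responses differed (log2 difference -2.75 ± 0.32 SE, adjusted p = 7.67e-05). MPC1, which pairs with it, was lower in ρ0 than in ρ+ cells without glucose (1.92-fold, log2 difference -0.94 ± 0.24 SE, adjusted p = 0.00849), a call lost with scaling to the poly-A controls (adjusted p = 0.051). HEM25, a glycine carrier of heme synthesis, fell in ρ0 cells, with 21.6 ± 1.37 without glucose and 49.99 ± 13.7 in glucose (2.19-fold, log2 difference -1.13, adjusted p = 0.00251), as did MRX20 (1.51-fold, log2 difference -0.59, adjusted p = 0.0285). POR2, a minor porin, fell in ρ+ cells, with 71.3 ± 17.7 without glucose and 156 ± 24.4 in glucose (2.20-fold, log2 difference -1.14, adjusted p = 0.00156). The major porin POR1 (1.36-fold, log2 difference 0.44, adjusted p = 0.0342) and the magnesium exporter MME1 (1.67-fold, log2 difference 0.74, adjusted p = 0.0458) rose there.

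Enzymes that make or use the carried substrates formed a second list, of which 20 of 21 were tested. These enzymes were chosen with earlier results of these data known, so their counts beside all genes are description and no test. In ρ0 cells none rose after withdrawal and 1 fell, ICL1, with a median of 0.11 against -0.11 for all genes. In ρ+ cells 8 rose and 2 fell, ARG2 and SAM2, with a median of 0.43 against -0.19. The shares of all genes that rose and fell were 4.59% and 12.4% in ρ0 cells and 10.5% and 22.3% in ρ+ cells. The 8 were CAT2, YAT2, ICL1, MLS1, POX1, FOX2, POT1 and SOD2. POX1 was tested because its mean in ρ+ cells without glucose, 23.0, passed the detection level, which no other group mean did. The other means were 4.83 in ρ0 cells without glucose, 5.025 in ρ0 cells in glucose and 3.94 in ρ+ cells in glucose. All differences given for POX1 therefore rest on signals near or below that level. POT1 signals were 15.5, 7.07 and 6.94 in ρ0 cells without glucose, 7.53, 10.2 and 10.7 in ρ0 cells in glucose, 159, 179 and 173 in ρ+ cells without glucose, and 7.93, 9.95 and 8.79 in ρ+ cells in glucose. POT1 encodes the thiolase of peroxisomal fatty acid oxidation, the pathway whose fatty acids are activated with ATP brought in by ANT1, and its ρ+ arrays without glucose lay above all others (16.6-fold, log2 difference 4.05 ± 0.24 SE, adjusted p = 1.15e-08, against glucose). ICL1, the isocitrate lyase that forms the succinate SFC1 carries, averaged 13.1 ± 2.14 in ρ0 cells without glucose, 20 ± 1.92 in ρ0 cells in glucose, 54.8 ± 4.55 in ρ+ cells without glucose and 15.9 ± 2.87 in ρ+ cells in glucose (SD, n = 3 each). The carnitine acetyltransferases CAT2 and YAT2 make the acetylcarnitine that CRC1 carries, and their log2 differences in ρ+ cells were 0.97 and 1.13 (adjusted p = 0.00376 and 0.000218). YAT1, the last of this kind on the list, made no call, with 0.42 in ρ+ cells (adjusted p = 0.305). The 6 enzymes with a lower response in ρ0 than in ρ+ cells, where 5.35% of all genes had one, were POT1 (-4.07), ICL1 (-2.27), POX1 (-2.24), MLS1 (-1.96), FOX2 (-1.68) and YAT2 (-1.40). CAT2 did not pass in that comparison (-0.87, adjusted p = 0.101), and SAM2 had a higher response in ρ0 cells (0.86).

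Without glucose 3 of the 20 enzymes were higher in ρ0 than in ρ+ cells, LEU4 (0.80), ARG2 (0.67) and LYS12 (0.58), against 20.6% of all genes. LEU9, ARG8, LYS20 and LYS21, further enzymes of leucine, arginine and lysine synthesis, made no call in it. In the same comparison 8 were lower, against 9.4% of all genes, led by POT1 (-4.00), ICL1 (-1.95) and POX1 (-1.94), and including CAT2 (-0.85) and YAT2 (-0.59). In glucose YAT2 was higher in ρ0 than in ρ+ cells (0.81) and SAM2 lower (-0.59). Over both lists and the 5 comparisons 15 of 40 calls were lost under at least 1 alternative (adjusted p 0.0501 to 0.317), namely MRX20 and ICL1 in ρ0 cells, MME1, POR1 and SAM2 in ρ+ cells, MPC1, YAT2, FAA2, ARG2, LEU4 and LYS12 between the strains without glucose, YAT2 and SAM2 between them in glucose, and POX1 and SAM2 for the difference of the responses.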

How the data were processed

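The deposited table holds a linear signal intensity for each of 9335 probe sets on 12 one-colour Affymetrix yeast arrays. Per the submitters' processing notes, the authors computed these intensities with MAS5, whose version and scaling target are not stated there. The values show a scaling per array, with a mean of 99.95 to 99.96 once the lowest and highest 2% of probe sets were left out. Per the labels' protocols, poly(A) RNA was copied into cDNA and transcribed into biotin-labelled cRNA.

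Groups were taken from the labels. Genes were assigned to probe sets by the platform annotation, with symbols from the RefSeq gene table: 6504 had 1 gene, 328 several and 2503 none, of which 60 were array controls. The detection level of 5.822 was the 25th percentile of all signals and the pseudocount of 1.498 the 10th, and 94.9% of the signals of 13 negative control probe sets lay at or below that level, with a highest value of 8.79. Genes with at least 1 group mean above it were tested, 5361 in all. The 12 arrays were fitted as log2(signal + 1.498) with 1 mean per group in limma 3.58.1 in R 4.3.3 (lmFit, contrasts.fit, eBayes with an intensity trend), and p-values were adjusted by the Benjamini-Hochberg method over all tested genes, with a threshold of 0.05. A fold marked "at least" is set against the detection level, because no array of the dimmer group exceeded it. Pair ratios were tested in Python 3.11.15. The precision is limited by 3 arrays per group. Nothing in the labels ties equal replicate numbers to 1 culture, and the model holds no block.

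All 30 carriers are named, with values by array for those past the threshold and for the adenine nucleotide carriers, and list genes are named where they passed. The members, lists and tests were chosen with earlier results of these data known. Alternatives were quantile normalization, median centring, scaling to poly-A controls, another pseudocount, no filter, a floor, a fit to the compared groups alone, a replicate block, the mean of all probe sets, leaving out both arrays that stand apart, and leaving out each array in turn.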

Additional observations from a re-analysis of the deposited data

Results flagged for a closer look

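For 4 carriers the effect of glucose withdrawal differed between ρ0 and ρ+ cells, by the test of the difference itself in the limma fit. The difference of the responses, ρ0 minus ρ+, was -2.75 for CRC1 and -2.29 for MRS4, and both held under all 21 alternatives, among them the mean of all probe sets, which left the carriers' signals unchanged. It was 1.22 for YHM2, which lost its call with scaling to the poly-A controls, and -1.22 for YIA6, whose call was lost under 10 of the 21. No carrier group holds more than 3 arrays, so single arrays were not screened for outlying values.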

How the results depend on the processing

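Of the 41 carrier calls, 15 held under all alternatives, 26 were lost under at least 1, and none changed sign. Of the 109 values not called, 15 passed under at least 1 alternative. With quantile normalization, the counts that moved by more than 1.5 times were 1 higher and 4 lower for withdrawal in ρ0 cells, 6 lower for withdrawal in ρ+ cells, and 4 higher for ρ0 against ρ+ without glucose. Over all genes these were 351, 493, 759 and 510, against 246, 666, 1193 and 1102 in the main fit. Median centring gave 2 lower in ρ0 cells, 6 lower in ρ+ cells and 2 higher for ρ0 against ρ+ without glucose. Over all genes these were 382, 548 and 442. Scaling to the poly-A controls gave 0 higher and 2 lower in ρ0 cells, 3 higher and 6 lower in ρ+ cells, 4 higher for ρ0 against ρ+ without glucose, 2 higher and 0 lower in glucose, and 0 higher for the difference of the responses. Over all genes these were 96, 291, 426, 414, 903, 354, 22 and 9. The main fit gave 246, 666, 561, 1193, 1102, 268, 78 and 84 in the same order. A fit to the compared groups alone gave 0 higher and 1 lower in ρ0 cells, with 86 and 331 over all genes. Signals floored at the detection level gave 2 higher for the difference, with 92 over all genes. Without both arrays that stand apart there were 1 higher and 4 lower in ρ0 cells, and 2 higher for the difference, with 227, 508 and 84 over all genes. The cause of these changes was not tested. The same setting left 0 pair tests past the threshold, but with 100 or 120 assignments those 3 calls alone could not pass there, so this count says nothing of those arrays. Median centring and poly-A scaling move all genes of an array alike and were not run on the pair ratios, and quantile normalization gave 4 pair tests past the threshold.

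Leaving out 1 array at a time gave 0 to 3 higher and 0 to 10 lower in ρ0 cells, 2 to 6 higher and 7 to 11 lower in ρ+ cells, 2 to 10 higher and 3 to 5 lower for ρ0 against ρ+ without glucose, 0 to 1 higher and 0 to 1 lower in glucose, 1 to 2 higher and 2 to 3 lower for the difference, and 0 to 5 pair tests. The labels do not say that a number marks 1 master culture, and the data did not settle it: the deviations of same-numbered arrays correlated at 0.025, -0.025 and 0.107 in ρ+ cells and 0.000, 0.160 and 0.520 in ρ0 cells. With the number as a replicate block, counts were 3 higher and 9 lower in ρ0 cells, 3 higher and 10 lower in ρ+ cells, 9 higher and 4 lower without glucose, 0 higher and 1 lower in glucose, and 1 higher and 2 lower for the difference. Over all genes, in the same order, the block gave 367 and 851, 635 and 1337, 1275 and 570, 382 and 117, and 152 and 360. It ended the calls for withdrawal in ρ+ cells of AAC1 (adjusted p = 0.0508) and YIA6 (0.0591), and that for the difference of the responses of YIA6 (0.0535). Medians of all genes moved with the scale, to 0.02 (median centring) and -0.11 (poly-A scaling) for withdrawal in ρ+ cells, against -0.19, and to -0.03 and 0.33 for ρ0 against ρ+ in glucose, against 0.13. Signals near the detection level limit SFC1, CRC1 and YIA6, and POX1 on the enzyme list, and 3 arrays per group limit all calls.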
